A study of Mus musculus with 10 samples.

Results

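The genes described here encode the subunits of the ionotropic and metabotropic receptors for glutamate, GABA and glycine, and were taken by gene symbol from a table of cerebral cortex expression in mice that lack the clock protein BMAL1 in astrocytes. The symbols of the 8 classes (AMPA, kainate, NMDA and delta receptors, metabotropic glutamate receptors, GABA-A and GABA-B receptors, and glycine receptors) found 41 of the 12575 genes in the table. Of the 49 genes listed for these classes, Grin3b, Grm6, Gabra6, Gabre, Gabrp, Gabrq, Glra1 and Glra4 were not among the rows and are not analysed here. RNA was sequenced from the cortex of 5 Cre- mice (Bmal1 fl/fl) and 5 BMAL1 aKO mice (Aldh1l1-CreERT2;Bmal1 fl/fl), and both groups received tamoxifen by oral gavage. The mice were littermates of both sexes on a C57BL/6 background, and the labels give an age of 4 months, while the study's text gives a later age and counts one BMAL1 aKO mouse fewer. Neither source names a library to leave out, so all 10 were used. The Aldh1l1 promoter directs the tamoxifen-dependent Cre to astrocytes, so the floxed Bmal1 gene is not targeted in neurons. Because the libraries were made from whole cortex, less RNA of a gene per cell and fewer cells that express it cannot be told apart.

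Glutamate is the main excitatory transmitter of the cortex. AMPA and kainate receptors are cation channels that carry fast currents, and NMDA receptors are calcium-permeable channels that need glutamate and a co-agonist (glycine or D-serine) together with depolarisation. The metabotropic glutamate receptors act through G proteins. GABA-A receptors are chloride channels assembled from several subunits, commonly a mixture of alpha, beta and gamma or delta subunits, and GABA-B receptors are G protein-coupled dimers of both of their subunits. Glycine receptors are also chloride channels, and are best known from the spinal cord and brainstem. Most of these genes are read mainly in neurons, but astrocytes are known to carry several of the receptors, among them mGluR3, mGluR5, GABA-B receptors and some GABA-A subunits.

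BMAL1 pairs with CLOCK and binds the E-box CACGTG, a palindrome that reads the same on both strands. Promoter windows of 250 bases before to 50 bases after a start site (RefSeq, GRCm38.p6) were matched for 26 of the 41 genes, in 33 windows. The letters CACGTG stood in the window of 1 of these genes (3.85%), against 8.09% of 27025 genes with a window. That gene was Grin1, which encodes the obligatory subunit of NMDA receptors, and its window held the motif in 2 places. The bases before its start site, chr2:25319188-25319437 on the minus strand, are printed because they are the only ones of these genes with a match, and the capitals mark the motif.
Grin1: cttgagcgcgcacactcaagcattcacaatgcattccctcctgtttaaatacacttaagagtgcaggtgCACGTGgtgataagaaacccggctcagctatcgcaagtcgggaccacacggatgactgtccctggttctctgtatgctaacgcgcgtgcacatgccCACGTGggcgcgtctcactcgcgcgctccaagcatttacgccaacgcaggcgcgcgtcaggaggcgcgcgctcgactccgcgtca
A match of letters is a description of the window and not evidence that BMAL1 binds there. The other 25 matched genes, Gabrb2 among them, lacked these letters in the windows searched.

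The libraries held 21844770 to 48295715 reads in Cre- (median 40945149) and 23127338 to 47964460 in BMAL1 aKO (median 37058465). Values are given as scaled CPM, that is CPM (a gene's reads relative to all reads of its library) after TMM scaling, listed in the order of replicates 1 to 5, with factors between 0.923 and 1.10. Arntl, the gene of BMAL1, was at 29.2 to 36.1 scaled CPM in Cre- and at 32.1 to 38.8 in BMAL1 aKO, which counts the whole gene over all cortical cells and therefore does not test the labels. Markers of the labelled tissue were present in every library. The summed level of 7 excitatory neuron markers ran from 4791 to 6502 scaled CPM in Cre- and from 5051 to 7379 in BMAL1 aKO, and that of 10 astrocyte markers from 6248 to 8760 and from 8325 to 9387. Cre- replicate 3 stood apart: 10 markers of striatum summed to 1946 scaled CPM there, against 509 to 1264 in the other Cre- libraries and 750.4 to 1305 in BMAL1 aKO, and its mitochondrial share was 6.19% of reads, the lowest of the 10. In the fit, libraries were weighted by their quality. Cre- replicate 1 took 73.3% of the weight of its group and Cre- replicate 3 took 1.73%, so estimates are followed by the values with equal weights and without Cre- replicate 1.

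No receptor subunit gene passed an adjusted p of 0.1 between BMAL1 aKO and Cre- in the limma fit across all genes, where 0.541% of 12573 genes passed (60 higher and 8 lower in BMAL1 aKO). With voomWithQualityWeights on the reads recovered from the CPM, the count was also 0 of 41. At an unadjusted p below 0.05, 9 of the 41 genes were set apart in the first fit and 3 in the second, where 10.4% of all genes were. Of these 9 genes, 8 were lower in BMAL1 aKO, against a background of 6.14% of all genes lower, and 1, Grin2c, was higher, against 9.14% of all genes higher. The lower estimates included Gabrb2, Gabra3, Grm8, Grin2a, Grik3, Gabrg3 and Gabra4.

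The estimates leaned to one side. With weights, 36 of 41 genes had a lower estimate in BMAL1 aKO, against 50.7% of all genes, and their median log2 fold change was -0.10. In the same fit, the median log2 fold change was -0.09 for 7 excitatory and 0.08 for 8 inhibitory neuron markers. It was 0.23 for 8 oligodendrocyte markers, of which 4 were at an unadjusted p below 0.05, against 15.3% of all genes. For 5 markers of oligodendrocyte precursors it was 0.15, and for 7 microglia markers 0.13. These medians were taken with weights only, and the groups overlapped in the summed level of each list. The oligodendrocyte markers summed to 3506 to 5822 scaled CPM in Cre- and 3897 to 5704 in BMAL1 aKO. The part of these cells in the lean was not tested. The lean depended on Cre- replicate 1. Without that library 26 of the 41 estimates were lower, with a median of -0.04, and with equal weights for all libraries 25 were lower, with a median of -0.06 and 1 gene, Gabrb2, at an unadjusted p below 0.05 (4.84% of all genes). No gene separated the groups completely in scaled CPM, as 1.11% of all genes did, and 1 gene, again Gabrb2, did so in the CPM as deposited, as 1.0% of all genes did (126 genes).

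The 95% intervals of the weighted fit take the weights as known, with 73.3% of the Cre- weight on replicate 1. Some estimates without that library fell outside them. Among these were Gria1 (0.19, interval -0.30 to 0.10) and Glra3 (0.19, interval -0.77 to 0.08). With weights the 95% interval lay within 1.5-fold in both directions for 38 of 41 genes (92.7%, against 92.6% of all genes). The exceptions were Grin2a, Grin3a and Glra3. It lay within 1.25-fold for 24 of 41 genes, against 6856 of 12573 genes. With equal weights it lay within 1.5-fold for 36 genes (87.8%, against 76.4% of all genes), the exceptions being Gabrd, Grin2c, Grik5, Grm2 and Grm4.

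**Figure D1:**
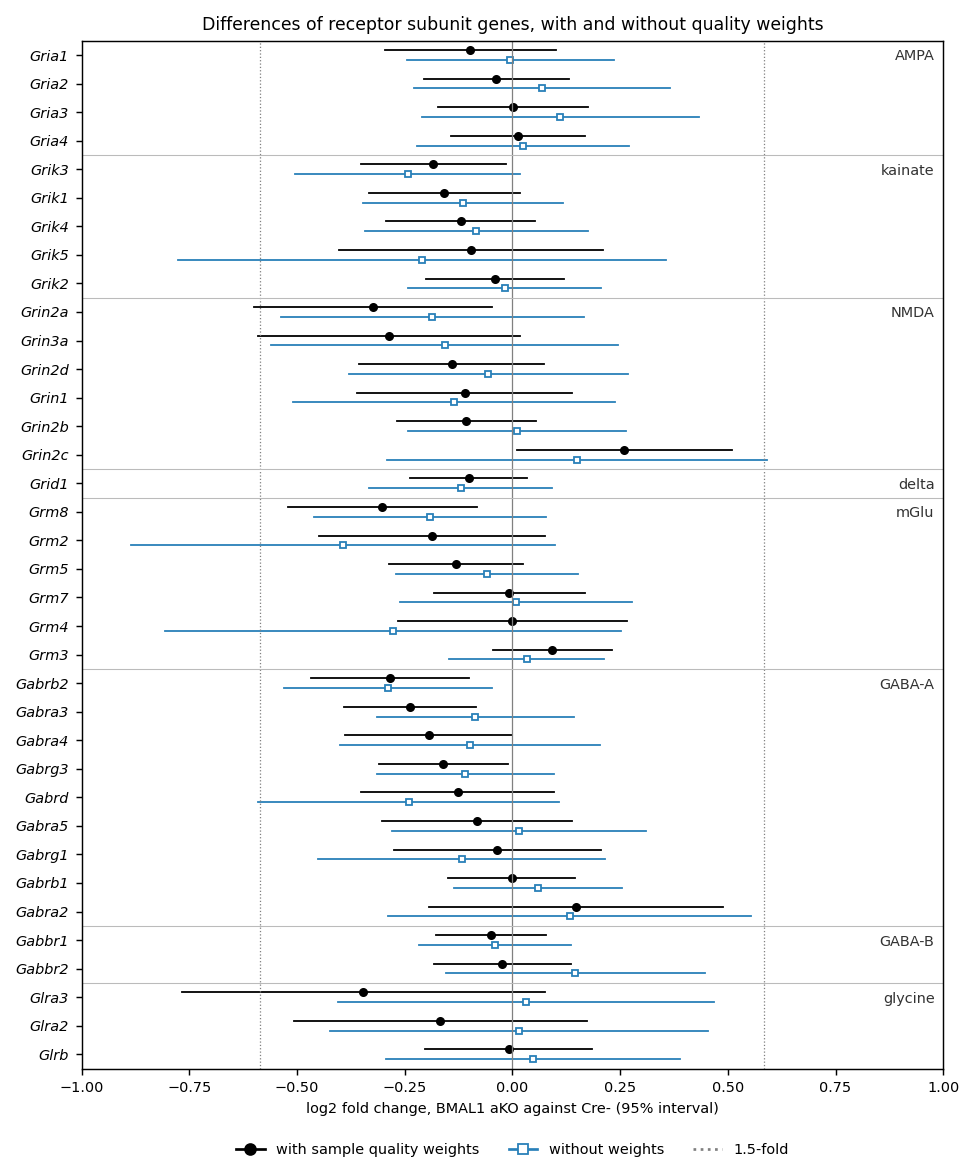
Log2 fold change of 36 receptor subunit genes between BMAL1 aKO and Cre- with its 95% interval, by receptor class, with sample quality weights (black circles) and with equal weights (blue squares); the dotted lines mark 1.5-fold. The weighted estimates of 31 genes lie below 0, the equal-weight estimates of 22 do, and Gabrb2 is the gene whose interval stays below 0 both ways.

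The levels of the subunits were compared per kb of exon, since a longer gene collects more reads. The highest were the GABA-B subunits Gabbr1, at 87.5 ± 5.31 scaled CPM per kb (mean and SD over 10 libraries), and Gabbr2, at 81.7 ± 11.3. These differed by less than the SD of Gabbr2. The AMPA subunits Gria1, at 64.3 ± 7.31, and Gria2, at 55.4 ± 7.84, were also among the highest. Glrb led the glycine receptors at 41.9 ± 7.19 and Grm3 the metabotropic receptors at 32.3 ± 2.22. Grik5 led the kainate subunits at 29.3 ± 11 and Grid1 the delta receptors at 10.1 ± 1.12. Of the NMDA subunits, Grin1 was at 33.7 ± 7.04 and Grin2b at 32.4 ± 3.65, which differed by less than either SD. Lengths took in all annotated exons of a gene, 24.8 kb for Grin2b. The lowest level was that of Glra3 (0.359 ± 0.0911), which was counted with 56 to 241 reads per library. Summed over a class, levels per kb overlapped between the groups in every class. The 12 GABA-A subunits came to 265 ± 50.1 in Cre- and 259 ± 20.1 in BMAL1 aKO, and the 4 AMPA subunits to 173 ± 20.3 and 176 ± 9.39 (scaled CPM per kb, SD, n = 5 each).

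**Figure D2:**
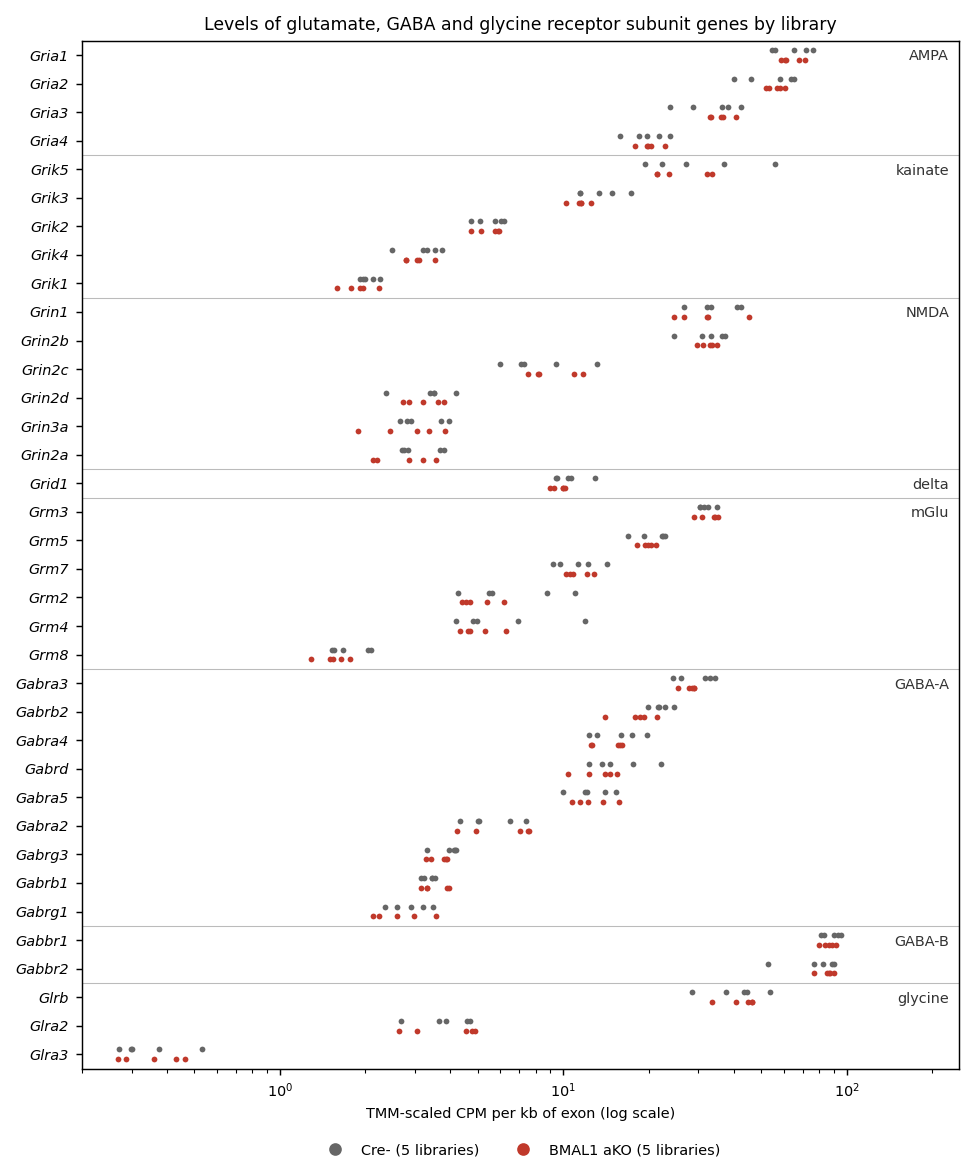
Level of 36 receptor subunit genes in every library, in TMM-scaled CPM per kb of exon on a log axis, by receptor class (grey, 5 Cre- libraries; red, 5 BMAL1 aKO libraries). Within a gene the groups overlap for all 36 genes, while the genes span from 0.359 for Glra3 to 87.5 for Gabbr1 on average.

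Among the AMPA receptor subunits, which form the channels of fast excitation, Gria1 had the smallest p and the highest level per kb of exon. Gria1 was at 433, 395, 459, 337 and 328 scaled CPM in the 5 Cre- libraries and 369, 411, 356, 367 and 431 in the 5 BMAL1 aKO libraries. The groups overlapped, with Cre- replicate 3 the highest and Cre- replicate 5 the lowest library. The estimate (log2 fold change) was -0.10 ± 0.09 (SE; adjusted p = 0.647), -0.01 with equal weights and 0.19 without Cre- replicate 1. Gria2, the subunit that makes AMPA channels impermeable to calcium, had a mean of 848 ± 173 in Cre- and 874 ± 56.0 in BMAL1 aKO (scaled CPM, SD, n = 5 each). For Gria3 the means were 334 ± 74.4 in Cre- and 354 ± 31.6 in BMAL1 aKO, and for Gria4, 126 ± 19.3 in Cre- and 127 ± 11.1 in BMAL1 aKO, with the same unit and n. Gria2 had a log2 fold change of -0.04 (0.07 with equal weights and -0.13 without Cre- replicate 1), Gria3 one of 0.0014 (0.11 with equal weights and -0.05 without Cre- replicate 1) and Gria4 one of 0.01 (0.02 with equal weights and -0.09 without Cre- replicate 1). With weights all 4 intervals lay within 1.25-fold, but the 0.19 of Gria1 without Cre- replicate 1 fell outside its weighted interval of -0.30 to 0.10. The median of the class was -0.02, 0.05 with equal weights and -0.07 without Cre- replicate 1.

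All 5 kainate receptor subunits had lower estimates in BMAL1 aKO with and without weights, with a class median of -0.12 and -0.11, and none passed the threshold. Without Cre- replicate 1 the class median was -0.02. Grik3, a subunit that can form a channel by itself, had the smallest p. Grik3 was at 120.2, 103, 156, 133 and 103 scaled CPM in the 5 Cre- libraries and 104, 102, 113, 91.7 and 103 in the 5 BMAL1 aKO libraries. The BMAL1 aKO libraries lay between 91.7 and 112.8, and Cre- replicates 2 and 5 lay within that range. Its log2 fold change was -0.18 ± 0.08 (SE; adjusted p = 0.293), -0.24 with equal weights and -0.02 without Cre- replicate 1, and an exact permutation test (two-sided, on mean log2 values) gave p = 0.103. Grik5, which joins channels only with other kainate subunits, was the highest of the class per kb. Grik5 was at 139.8, 100.4, 288, 190.1 and 115 scaled CPM in the 5 Cre- libraries and 166, 173, 122, 111 and 111 in the 5 BMAL1 aKO libraries. Cre- replicate 3 was the highest by far, and the log2 fold change of -0.10 (adjusted p = 0.787) became -0.21 with equal weights and 0.11 without Cre- replicate 1. Grik1, Grik2 and Grik4 had log2 fold changes of -0.16, -0.04 and -0.12 (-0.11, -0.02 and -0.08 with equal weights; -0.21, 0.08 and -0.08 without Cre- replicate 1), with means between 12.8 scaled CPM for Grik1 in BMAL1 aKO and 73.7 for Grik2 in Cre-.

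The NMDA receptor subunits held both directions. Grin2a, a glutamate-binding subunit that becomes prominent in the adult cortex, had a lower estimate, and Grin2c, a subunit known from cerebellum and astrocytes, a higher one. Grin2a was at 65.9, 48.5, 49.1, 68.4 and 50.8 scaled CPM in the 5 Cre- libraries and 63.7, 38.1, 57.3, 39.6 and 51.4 in the 5 BMAL1 aKO libraries. BMAL1 aKO replicates 2 and 4 were the lowest libraries, and replicate 1 lay among the highest, so the groups overlapped. For Grin2a the log2 fold change was -0.32 ± 0.13 (SE; adjusted p = 0.263) with an interval of -0.60 to -0.05. It was -0.19 with equal weights and -0.05 without Cre- replicate 1. Grin2c was at 36.7, 30.1, 66.3, 47.6 and 35.7 scaled CPM in the 5 Cre- libraries and 59.1, 55.0, 41.4, 37.9 and 41.1 in the 5 BMAL1 aKO libraries. The highest value of all was that of Cre- replicate 3, above every BMAL1 aKO library, while the other Cre- libraries lay from 30.1 to 47.6. With weights the log2 fold change was 0.26 ± 0.12 (SE; adjusted p = 0.315), and it was 0.15 with equal weights and 0.29 without Cre- replicate 1.

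Grin1 was at 322, 259, 399, 411 and 312 scaled CPM in the 5 Cre- libraries and 437, 311, 315, 239 and 259 in the 5 BMAL1 aKO libraries. Grin1 was thus spread over a similar range in both groups, and its log2 fold change was -0.11 ± 0.12 (SE; adjusted p = 0.685), -0.14 with equal weights and -0.07 without Cre- replicate 1. It shares 1307 exon bases with Grin1os on the opposite strand, and the library kit did not keep strand, so reads of the pair cannot be told apart. Grin2b, the glutamate-binding subunit that predominates in the young forebrain, had a mean of 806 ± 126 in Cre- and 805 ± 52.2 in BMAL1 aKO (scaled CPM, SD, n = 5 each) and a log2 fold change of -0.11 ± 0.07 (SE; adjusted p = 0.517), 0.01 with equal weights and 0.06 without Cre- replicate 1. Grin2d was at 18.2 to 25.3 scaled CPM in BMAL1 aKO and at 15.8 to 27.9 in Cre-, with a log2 fold change of -0.14 (-0.06 with equal weights and -0.10 without Cre- replicate 1). Grin3a, a glycine-binding subunit, was at 23.2 to 47.1 and 32.7 to 48.6, with a log2 fold change of -0.29 (adjusted p = 0.351) and an interval of -0.59 to 0.02 that reached past a 1.5-fold decrease. It was -0.16 with equal weights and -0.04 without Cre- replicate 1.

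The delta receptors bind cerebellins at synapses rather than carry glutamate currents. Grid1 was at 61.8, 56.5, 77.2, 63.5 and 56.2 scaled CPM in the 5 Cre- libraries and 60.3, 59.5, 53.6, 55.4 and 59.3 in the 5 BMAL1 aKO libraries. Cre- replicate 3 was again the highest library, and the other Cre- values, between 56.2 and 63.5, took in 3 of the 5 BMAL1 aKO values. Grid1 had a log2 fold change of -0.10 ± 0.06 (SE; adjusted p = 0.467), -0.12 with equal weights and -0.0038 without Cre- replicate 1.

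Of the metabotropic glutamate receptors, Grm8, a presynaptic receptor of group III, had the smallest p. Grm8 was at 20.3, 20.8, 15.2, 16.5 and 15.4 scaled CPM in the 5 Cre- libraries and 15.2, 12.8, 16.3, 14.9 and 17.5 in the 5 BMAL1 aKO libraries. Cre- replicates 1 and 2 were the highest, and the other 3 Cre- libraries lay inside the BMAL1 aKO range. Its log2 fold change was -0.30 ± 0.10 (SE; adjusted p = 0.214), -0.19 with equal weights and -0.03 without Cre- replicate 1 (adjusted p = 0.908).

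Neither of the astrocytic receptors of this family passed the threshold. Grm3, the group II receptor of cortical astrocytes, was at 92.8, 95.7, 98.9, 106 and 92.5 scaled CPM in the 5 Cre- libraries and 104, 94.2, 104, 108 and 88.2 in the 5 BMAL1 aKO libraries. Grm5, the group I receptor that young astrocytes and many neurons carry, was at 228, 234, 231, 174 and 198 scaled CPM in the 5 Cre- libraries and 199.8, 208, 187, 218 and 204 in the 5 BMAL1 aKO libraries. In both genes the groups overlapped widely. The log2 fold changes were 0.09 ± 0.06 (SE; adjusted p = 0.51) for Grm3 and -0.13 ± 0.07 (SE; adjusted p = 0.402) for Grm5, and the interval of Grm3 was -0.04 to 0.23. Grm3 was at 0.03 with equal weights and 0.09 without Cre- replicate 1, and Grm5 at -0.06 with equal weights and 0.01 without Cre- replicate 1. For Grm2, the other group II receptor and a mainly presynaptic one, Cre- replicates 3 and 4 stood at 53.8 and 43.0 scaled CPM, above the 21.6 to 30.4 of BMAL1 aKO. Its log2 fold change was -0.19 (adjusted p = 0.492), -0.39 with equal weights and -0.16 without Cre- replicate 1. Grm4 was near 0 with weights, -0.28 with equal weights and 0.16 without Cre- replicate 1, and Grm7 was at -0.01, 0.01 with equal weights and -0.10 without Cre- replicate 1. The class median of -0.13 became -0.19 with equal weights and -0.03 without Cre- replicate 1. Exons of several receptor genes overlap another annotated gene, so their reads are uncertain to that extent. Among these are Grin2d (643 bases), Grm2 (470), Grin2b (278), Grm7 (130) and Gria2 (111).

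**Figure D3:**
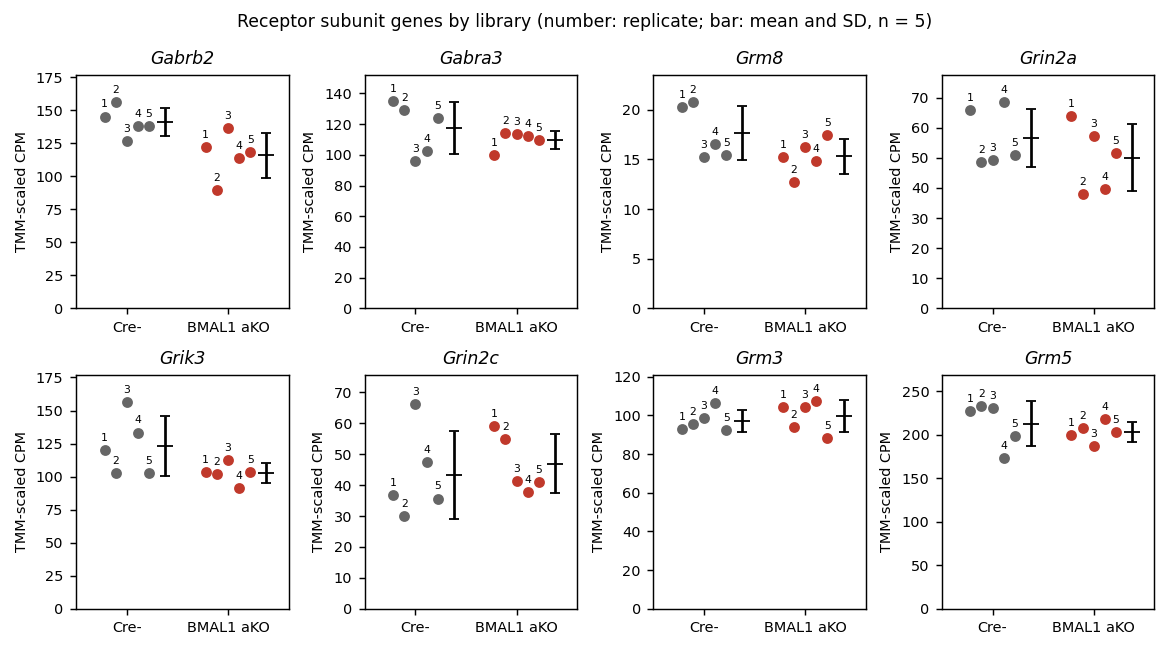
TMM-scaled CPM of 8 receptor subunit genes in each library, from 0 (grey, Cre-; red, BMAL1 aKO; the number is the replicate, and the bar gives the mean and SD, n = 5). For all 8 genes the ranges of the groups overlap, and in Gabrb2 the overlap is the 1 BMAL1 aKO library at 136 above the 1 Cre- library at 127.

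Gabrb2 had the smallest p of all 41 genes. It encodes the beta2 subunit, a common partner in the GABA-A receptors of the adult brain, and lies at chr11:42419757-42629028, plus strand (GRCm38). Gabrb2 was at 145, 156, 127, 138 and 138 scaled CPM in the 5 Cre- libraries and 122, 89.2, 136, 114 and 118 in the 5 BMAL1 aKO libraries. All Cre- libraries except replicate 3 were above all BMAL1 aKO libraries, and BMAL1 aKO replicate 3 was the one that overlapped. The means were 141 ± 10.7 in Cre- and 116 ± 17.1 in BMAL1 aKO (scaled CPM, SD, n = 5 each). This corresponded to a log2 fold change of -0.29 ± 0.09 (SE; adjusted p = 0.184) with an interval of -0.47 to -0.10, and the two-sided exact permutation test gave p = 0.0159. Without weights the estimate was the same size, -0.29, with an adjusted p of 0.836, and it was -0.24 without Cre- replicate 1. It passed the threshold in 2 of 25 other settings of the fit. Without BMAL1 aKO replicate 3 the log2 fold change was -0.38 (adjusted p = 0.0617), where 3.03% of all genes passed. With the striatum marker level as a covariate it was -0.26 (adjusted p = 0.0911), where 1654 of 12573 genes passed. The weights of that fit did not converge. The estimate was negative in all of these settings, from -0.39 to -0.23, and the adjusted p ran up to 0.998.

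Several GABA-A subunit genes lie in clusters, and in the cluster on chromosome 5 the estimates had both signs. Gabra4, an alpha subunit of extrasynaptic receptors, had 107, 120.0, 74.8, 80.02 and 97.1 scaled CPM in the Cre- libraries and 76.5, 76.7, 98.1, 96.5 and 94.9 in the BMAL1 aKO libraries. The groups overlapped widely, and its log2 fold change was -0.19 ± 0.09 (SE; adjusted p = 0.326), -0.10 with equal weights and -0.10 without Cre- replicate 1. Gabra2, which encodes an alpha subunit of forebrain synapses, was at 38.3, 56.3, 33.0, 38.6 and 49.7 scaled CPM in the 5 Cre- libraries and 37.5, 57.4, 32.3, 58.1 and 53.9 in the 5 BMAL1 aKO libraries. Both groups held libraries near 33 and above 56, and the log2 fold change was 0.15 ± 0.16 (SE; adjusted p = 0.693), 0.13 with equal weights. It turned to -0.13 without Cre- replicate 1, and was 0.37 without BMAL1 aKO replicate 3 and 0.54 with the oligodendrocyte marker level as a covariate, in a fit whose weights did not converge. Gabrb1, a beta subunit found in astrocytes as well as neurons, was at 48.9, 47.8, 44.7, 43.4 and 47.8 scaled CPM in the 5 Cre- libraries and 43.6, 54.6, 45.6, 53.8 and 45.7 in the 5 BMAL1 aKO libraries. Gabrg1, a gamma subunit enriched in glia, was at 20.4, 25.2, 27.3, 18.5 and 22.8 scaled CPM in the 5 Cre- libraries and 16.8, 27.9, 17.6, 23.3 and 20.3 in the 5 BMAL1 aKO libraries. Neither separated the groups. Gabrb1 had a log2 fold change of -0.0022, with an interval of -0.15 to 0.15, 0.06 with equal weights and 0.02 without Cre- replicate 1. Gabrg1 had one of -0.04 ± 0.11 (SE; adjusted p = 0.91), -0.12 with equal weights and -0.15 without Cre- replicate 1, and it was 0.05 without BMAL1 aKO replicate 3. Gabra4 and Gabrb1 share 46 exon bases.

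Gabra3, the alpha subunit gene on the X chromosome, had a p next to that of Gabrb2, but it rested on the weights. Gabra3 was at 135, 129, 96.1, 103 and 124 scaled CPM in the 5 Cre- libraries and 99.5, 114, 114, 112 and 109 in the 5 BMAL1 aKO libraries. The BMAL1 aKO libraries lay between 99.5 and 113.9, and Cre- libraries lay below, within and above that range. Its log2 fold change was -0.24 ± 0.07 (SE; adjusted p = 0.184), -0.09 with equal weights and -0.14 without Cre- replicate 1, and the exact permutation test gave p = 0.421. In the chromosome 7 cluster, Gabrg3, a gamma subunit, had 49.7, 49.3, 47.2, 39.4 and 49.8 scaled CPM in the Cre- libraries and 45.3, 39.0, 46.6, 40.7 and 46.2 in the BMAL1 aKO libraries. Cre- replicate 4 was low among its group, and the log2 fold change was -0.16 ± 0.07 (SE; adjusted p = 0.303), -0.11 with equal weights and -0.16 without Cre- replicate 1. Gabra5, the alpha subunit of tonic inhibition in hippocampus, had a log2 fold change of -0.08, 0.02 with equal weights and 0.07 without Cre- replicate 1. Gabrd, whose delta subunit marks extrasynaptic receptors, was at 35.6 to 63.4 scaled CPM in Cre- and 29.9 to 44.6 in BMAL1 aKO, with a log2 fold change of -0.13 ± 0.10 (SE; adjusted p = 0.588), -0.24 with equal weights and -0.05 without Cre- replicate 1. Over the 12 GABA-A genes, 11 estimates were lower with weights and 7 without, and the median was -0.07 and -0.05, and -0.14 without Cre- replicate 1.

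With weights, the GABA-B subunits had narrow intervals, while the equal-weight interval of Gabbr2 was -0.15 to 0.45. Gabbr1, which holds the GABA-binding site, was at 702, 631, 744, 721 and 648 scaled CPM in the 5 Cre- libraries and 715, 672, 689.9, 623 and 649 in the 5 BMAL1 aKO libraries. Gabbr2, which couples to the G protein, was at 596, 554, 352, 511 and 601 scaled CPM in the 5 Cre- libraries and 570.4, 511, 601, 583 and 580.4 in the 5 BMAL1 aKO libraries. Gabbr1 had the smallest spread of all 41 genes, with a within-group SD of 0.09 on the log2 scale, and Gabbr2 was low in Cre- replicate 3 alone. The log2 fold changes were -0.05 ± 0.06 (SE; adjusted p = 0.722) and -0.02 ± 0.07 (SE; adjusted p = 0.91), with intervals of -0.18 to 0.08 and -0.18 to 0.13. Gabbr1 was at -0.04 with equal weights and 0.03 without Cre- replicate 1, and Gabbr2 at 0.15 with equal weights and -0.03 without Cre- replicate 1.

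Of the glycine receptor subunits, Glrb encodes the beta subunit that ties the receptor to gephyrin. Glrb was at 201, 250.3, 133, 174 and 207 scaled CPM in the 5 Cre- libraries and 189.7, 156, 215, 216 and 209 in the 5 BMAL1 aKO libraries. The BMAL1 aKO values lay within the Cre- range, and the log2 fold change was -0.01 ± 0.09 (SE; adjusted p = 0.977), 0.05 with equal weights and -0.04 without Cre- replicate 1. Glra3, an alpha subunit and the lowest of the 41 genes, was at 4.91, 2.78, 3.46, 2.49 and 2.75 scaled CPM in the 5 Cre- libraries and 2.48, 4.26, 2.64, 3.97 and 3.32 in the 5 BMAL1 aKO libraries. Cre- replicate 1 was the highest. The log2 fold change of -0.35 ± 0.20 (SE; adjusted p = 0.417) had an interval of -0.77 to 0.08, and it became 0.03 with equal weights and 0.19 without Cre- replicate 1. Glra2, the alpha subunit of the immature brain, had a log2 fold change of -0.17 ± 0.16 (SE; adjusted p = 0.648), 0.01 with equal weights and 0.06 without Cre- replicate 1.

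The 8 genes listed as known from astrocytes (Grm3, Grm5, Grin2c, Gabrg1, Gabra2, Gabrb1, Gabbr1 and Gabbr2) were summarised as a set. Whole-cortex RNA does not show which cells carry a gene, so the other genes may be read in astrocytes too. None of the 8 passed the threshold, and 1 (Grin2c) was at an unadjusted p below 0.05, against 15.3% of all genes. Of the 8 estimates 5 were lower and 3 higher, and their median log2 fold change was -0.01. All 8 intervals lay within 1.5-fold with weights, and without weights Grin2c was the exception. The other 33 genes had a median of -0.11, with 31 lower estimates. That count depended on the weights. Without weights the medians were 0.05 and -0.08, and 3 of the 8 and 22 of the 33 estimates were lower. Without Cre- replicate 1 the sets were not summarised apart. Over all receptor genes together, 26 estimates were then lower, with a median of -0.04. The difference between these sets of genes was not tested. Of 10 astrocyte markers, 1 was past the threshold (0.541% of all genes). At an unadjusted p below 0.05 there were 4 (15.3% of all genes). The median log2 fold change of the 10 markers was 0.11 with weights. The part of astrocyte RNA in the levels of the 8 receptor genes was not tested.

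The proteins that accompany the receptors were read from 53 genes of auxiliary subunits, scaffolds and ligands, of which 51 were in the table. With limma none passed the threshold and 4 were at an unadjusted p below 0.05, 3 lower (6.14% of all genes) and 1 higher (9.14% of all genes), and the median log2 fold change was -0.04 with 34 lower estimates. Nrxn3, a presynaptic neurexin that binds cerebellins, was at 360.1, 349, 389.7, 351 and 368 scaled CPM in the 5 Cre- libraries and 324, 344, 339, 298 and 327 in the 5 BMAL1 aKO libraries. All 5 BMAL1 aKO libraries lay below all 5 Cre- libraries, as for 1.11% of all genes. The log2 fold change was -0.14 ± 0.05 (SE; adjusted p = 0.246), -0.16 with equal weights and -0.17 without Cre- replicate 1, and the exact permutation test gave p = 0.00794, the smallest it can give with 5 against 5. Of the 6 cerebellin and neurexin genes, 3 had lower and 3 higher estimates.

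Kctd16, an auxiliary subunit of GABA-B receptors, had 25.2, 22.1, 20.4, 29.3 and 21.0 scaled CPM in the Cre- libraries and 21.8, 21.4, 22.6, 19.4 and 16.5 in the BMAL1 aKO libraries. Cre- replicates 2, 3 and 5 were within the range of BMAL1 aKO, and the log2 fold change was -0.27 ± 0.10 (SE; adjusted p = 0.232), -0.21 with equal weights and -0.08 without Cre- replicate 1. Neto2, which joins kainate receptors, had 106, 102, 66.6, 72.6 and 91.8 scaled CPM in the Cre- libraries and 74.6, 73.8, 96.7, 88.2 and 88.8 in the BMAL1 aKO libraries. The groups overlapped, and the log2 fold change was -0.21 ± 0.10 (SE; adjusted p = 0.32), -0.04 with equal weights and -0.07 without Cre- replicate 1. Homer3, a scaffold of group I metabotropic receptors, was low throughout, with 2.91, 3.02, 5.24, 4.02 and 3.84 scaled CPM in the Cre- libraries and 4.33, 3.36, 4.90, 2.94 and 4.33 in the BMAL1 aKO libraries. Its log2 fold change of 0.32 ± 0.15 (SE; adjusted p = 0.325) also came from overlapping groups, and it was 0.06 with equal weights and 0.07 without Cre- replicate 1. By list, 8 of 14 auxiliary subunits of AMPA and kainate receptors, 14 of 19 excitatory scaffold genes and 9 of 12 inhibitory scaffold genes and GABA-B partners had lower estimates, with medians of -0.05, -0.04 and -0.06.

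Ratios of subunits within a library do not depend on how libraries are scaled. Of 10 ratios fixed for the comparison, none passed two-sided exact permutation tests between the groups, with raw p from 0.254 to 0.913 and a Benjamini-Hochberg adjusted p of 0.913 for each. The smallest raw p belonged to Grin2a to Grin2b, the ratio that grows as NMDA receptors mature, with a log2 ratio of -3.83 ± 0.26 in Cre- and -4.03 ± 0.26 in BMAL1 aKO (SD, n = 5 each). Gria1 to Gria2 was at -1.10 ± 0.43 and -1.18 ± 0.15, and Grm3 to Grm5 at -1.12 ± 0.24 and -1.03 ± 0.15. Gabbr1 to Gabbr2 was at 0.42 ± 0.39 and 0.23 ± 0.12. The Cre- SD was the larger one in 8 of the 10 ratios, and Cre- replicate 3 was the highest or lowest library in 6.

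The receptor genes deviated in 1 Cre- library along their base composition. Cre- replicate 3 was the highest library for 15 of the 41 genes (36.6%, against 30.9% of all genes) and the lowest for 11 (26.8%, against 30.6%). Cre- replicate 2 was the highest for 13 genes and the lowest for 5. The deviation of Cre- replicate 3 from the median of the other libraries rose with the GC content of the gene, with Pearson's r = 0.64 across the 41 genes and 0.61 across 12021 genes, which share the same library and are not independent. The 11 receptor genes above 50% GC deviated by a median of 0.59 (log2), and 10 of them upward, with Grm4 at 1.30, Grik5 at 1.24 and Grm2 at 1.01. Gabbr2, at -0.72, was the exception. The 30 genes at or below 50% GC had a median of -0.10. In Cre- replicate 3 the excitatory markers deviated by a median of -0.59 and the striatum markers by 1.35 (log2, against the median of all libraries). Summed, the excitatory markers were at 5631 scaled CPM there, within the 4791 to 6502 of the other Cre- libraries. The part of each set of markers in the deviations of the receptor genes was not tested. The median within-group SD of the 41 genes was 0.23 on the log2 scale, against 0.22 for all genes. Without this library the median log2 fold change of the receptor genes was -0.08, and 37 of 41 estimates were lower.

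**Figure D4:**
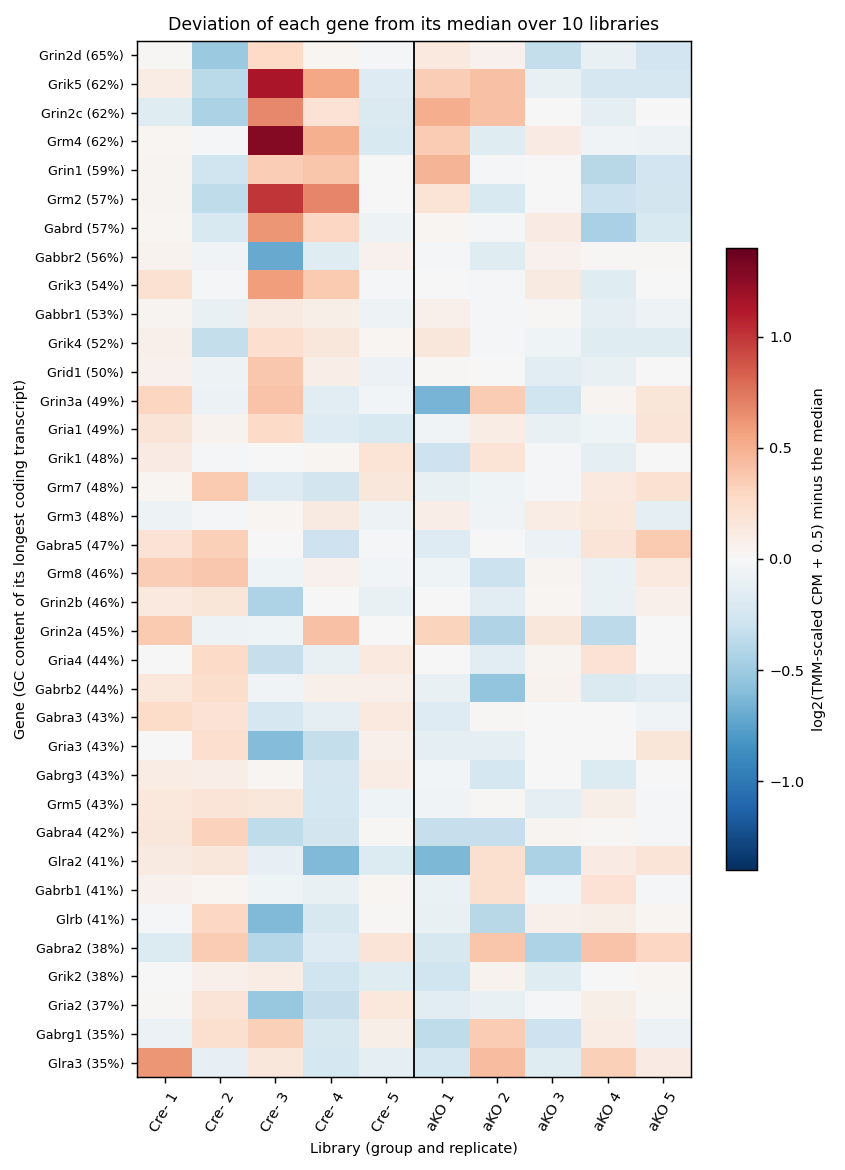
Deviation of 36 receptor subunit genes from its median over the 10 libraries, as log2(TMM-scaled CPM + 0.5), with genes ordered from high to low GC content and the groups divided by the black line. Cre- replicate 3 is above the median for most genes at the top and below it for many at the bottom, and is highest for Grm4, at 1.30 against the other libraries, and no such column stands out in BMAL1 aKO.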

How the data were processed

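Cortex RNA of 5 Cre- and 5 BMAL1 aKO mice was sequenced as paired ends from a kit that does not keep strand. The authors aligned reads to GRCm38 (Ensembl) (aligner STAR 2.5.1a, counter featureCounts 1.4.6-p5) and deposited per-gene CPM without TMM scaling. Every CPM was a whole number of reads within 0.01 read, which gave the depth of each library. Replicate numbers in the labels name the libraries, and no pairing of mice is stated.

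TMM factors were computed from the recovered reads, and log2(scaled CPM + 0.5) was modelled by limma (3.58.1, under R 4.3.3) using quality weights per library and a variance trend, for the 12573 genes above 1 CPM in at least 4 libraries. All 41 receptor genes passed that filter. P-values were adjusted by Benjamini-Hochberg over all genes with a threshold of 0.1, as in the study, whose removal of ribosomal genes was not repeated. Fold changes are on the log2(value + 0.5) scale. For single genes, mean log2 values were also compared by exact permutation (two-sided). The fit was tested on simulated data. Positions, exon lengths, GC content and overlaps are from GENCODE M21 (GRCm38), and promoter windows from RefSeq. Alternatives were no TMM scaling, size factors, quantile normalization, other pseudocounts and filters, equal weights, voomWithQualityWeights, covariates, a replicate block and each library left out.

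Each receptor gene was counted in its class. Values in each library were given for the gene of each class with the smallest p or the highest CPM per kb, for the 8 genes known from astrocytes and, chosen after their values were seen, for the other genes at an unadjusted p below 0.05. A partner gene was named where it had the smallest p of its list. Some genes that these rules take in are counted but not reported here by name. The receptor genes and lists were chosen with earlier results of these data known.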

Additional observations from a re-analysis of the deposited data

Results flagged for a closer look

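Of 66 groups of 5 values examined, 4 held a library far from the rest, with a gap to the nearest library that took most of the range of the group (Dixon's criterion at 95%). Chance flags about 1 in 20 groups, and Cre- replicate 3 was the library in 3 of the 4 cases.

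Gabrg3 was at 39.4 scaled CPM in Cre- replicate 4 and at 47.2 to 49.8 in the other Cre- libraries (gap 0.752 of the range).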

How the results depend on the processing

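The count of receptor genes past the threshold was 0 in 24 of 26 settings. It was 4 with the striatum marker level as a covariate (Gabrb2, Grm2, Grik3 and Gabrd, all lower). When single libraries were left out it was 0 to 1, with Gabrb2 past it without BMAL1 aKO replicate 3 (3.03% of all genes). The partner genes had a count of 0 except for 4 with the striatum covariate (Nrxn3, Dlgap2 and Kctd12 among them). That covariate called 1654 of 12573 genes (962 higher), beside the 4 of 41 receptor genes and 4 of 51 partner genes. It brought the median log2 fold change of the receptor genes to 0.0012. Its weights did not converge, nor did those of 2 other settings, the oligodendrocyte covariate and the fit without Cre- replicate 5.

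Of all genes, 68 passed at first, 42 without TMM scaling, 4 with equal weights, 29 with voom, 31 with sex as a covariate, 14 with oligodendrocyte markers as a covariate and 30 at an adjusted p of 0.05. The alternatives chosen after seeing the data gave 4 (equal weights, no TMM scaling) and 3 (equal weights, no Cre- replicate 3). Leaving out single libraries gave 18 to 381. The replicate block gave 6, with a receptor median of -0.0236 (26 of 41 lower) and 0 receptor genes. The labels do not say that the numbers pair the mice. Same-numbered libraries correlated at -0.63 to 0.36, which cannot settle it, since differences between libraries also enter these correlations.

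The median of the receptor genes ran from -0.123 to -0.0394 over single libraries left out, the highest without Cre- replicate 1, and was -0.0416 with equal weights and no Cre- replicate 3. It was -0.14 without TMM scaling, where the median of all genes was -0.04. Class medians were negative in all 26 settings for NMDA, kainate and metabotropic receptors, though they fell in size from -0.13, -0.12 and -0.13 to -0.05, -0.02 and -0.03 without Cre- replicate 1 and the metabotropic median was -0.02 with the block. They changed sign in some settings for the other classes. For 23 receptor genes followed singly, 516 of 529 estimates kept their side and size, 10 moved and 3 passed the threshold. The other planned tests on counts were not run. With 56 to 241 reads per library, Glra3 is the gene for which depth limits the values most.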
